A study of Homo sapiens with 4 samples.

Results

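The mitochondrial carriers of the SLC25 family were examined by RNA-seq in HEK293 cells and in Synph-293 cells. They were taken as all protein-coding genes whose symbol is SLC25A followed by digits, which gave 48 of the 60676 genes in the deposited table. Genes under other symbols, such as UCP2 and MTCH1, were left out of this set. Member and family refer below to these 48 genes only. HEK293, a cell line from human embryonic kidney in wide use, is the wild-type control, and Synph-293 is HEK293 with added expression of synphilin-1, the product of SNCAIP, a cytoplasmic protein that binds alpha-synuclein. Neither line was treated, both were kept in medium with serum, and each gave 2 libraries labelled as poly(A) RNA. Nothing in the labels ties the 2 libraries of a line to separate cultures, so the p-values measure only the spread between these libraries, which may be technical. The labels also leave unsaid what promoter drives synphilin-1 and whether Synph-293 is 1 clone or a pool of cells.

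SLC25 carriers are small membrane proteins, most of them in the inner mitochondrial membrane, built from a domain that is repeated within the protein. Each exchanges or imports particular solutes, such as ADP for ATP, phosphate, citrate, aspartate for glutamate, iron or folate, and so links the matrix to the cytosol. They have no cleavable presequence in most cases and reach the inner membrane through the outer membrane translocase, small chaperones of the intermembrane space and the TIM22 complex. A few members sit elsewhere, such as SLC25A17 in peroxisomes and SLC25A46 in the outer mitochondrial membrane.

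Library totals lay between 13284417 and 16998732 counts. The counts of SNCAIP followed the labels, with 17 and 16 in HEK293 but 22911 and 24834 in Synph-293. Genes of the mitochondrial genome took 7.76% to 10.6% of counts in HEK293 and 7.28% to 10.9% in Synph-293. Of the 7 renal lineage markers listed, 6 had over 3 counts in all 4 libraries, and the list summed to between 50.5 and 53.0 CPM (counts scaled to library size) in HEK293 and between 65.4 and 68.3 CPM in Synph-293. Epithelial markers summed to between 942 and 1193 CPM in HEK293 and between 1855 and 2170 CPM in Synph-293, with KRT8 and KRT18 making up most of it and EPCAM and CDH1 each below 1 CPM. Mesenchymal markers summed to between 538 and 607 CPM in HEK293 and between 826 and 869.8 CPM in Synph-293, mostly VIM. The 6 blood markers summed to between 41.6 and 43.1 CPM in HEK293 and between 36.4 and 44.9 CPM in Synph-293, mostly HBB, with PTPRC at or below 0.225 CPM in every library. The 5 endothelial markers summed to between 4.03 and 4.19 CPM in HEK293 and between 6.08 and 6.97 CPM in Synph-293. The part of these marker shifts in the carrier results was not tested.

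Related carriers can share reads where their sequences are the same or nearly the same, and only coding sequences were compared here. The adenine nucleotide carriers are shown because 3 of them were expressed at very different levels and one of the 3 was called. The lines give coding bases 1 to 90 (GENCODE 29 on GRCh38, coding strand, from the start codon), with capitals where a base differs from SLC25A5.
SLC25A5: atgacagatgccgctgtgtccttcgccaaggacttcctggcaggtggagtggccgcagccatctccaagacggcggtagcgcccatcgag
SLC25A6: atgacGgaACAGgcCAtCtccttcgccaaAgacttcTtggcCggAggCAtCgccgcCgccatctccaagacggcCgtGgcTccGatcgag
SLC25A4: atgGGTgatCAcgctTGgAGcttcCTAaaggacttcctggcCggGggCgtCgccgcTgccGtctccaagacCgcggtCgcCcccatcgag
Within this stretch SLC25A6 differed from SLC25A5 at 20 bases and SLC25A4 at 21. Over the whole coding sequence, SLC25A4 and SLC25A5 had 77.2% of aligned bases in common, with a longest identical run of 14 bases, and SLC25A5 and SLC25A6 had 78.7% and 29 bases. SLC25A51 and SLC25A52 were the closest pair examined, with 97.6% and an identical run of 169 bases, so that their reads are uncertain, and the ornithine carriers SLC25A15 and SLC25A2 had 87.6% and 33 bases. Of 41 annotated pseudogenes of the family, 3 had a count in any library, and the highest was 6 counts.

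The promoters of 4 of the 5 carriers that were called different between the lines are shown next, each with 250 bases before the RefSeq gene start and 50 after it (RefSeq, GRCh38.p14, 5′ to 3′ on the gene's strand). Capitals mark 4 motifs, each searched on both strands with overlaps between motifs allowed. They are the CCAAT box, a GC box spelled GGGCGG, the TATA element spelled TATAA, and an ETS factor motif spelled CCGGAAG.
SLC25A4, chr4:185143016-185143315, plus strand: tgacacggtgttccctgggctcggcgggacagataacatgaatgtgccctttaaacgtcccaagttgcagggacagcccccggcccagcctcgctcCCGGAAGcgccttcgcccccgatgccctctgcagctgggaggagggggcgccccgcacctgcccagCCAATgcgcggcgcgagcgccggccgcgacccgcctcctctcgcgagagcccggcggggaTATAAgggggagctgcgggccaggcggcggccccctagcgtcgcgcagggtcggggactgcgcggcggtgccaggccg
SLC25A14, chrX:130339669-130339968, plus strand: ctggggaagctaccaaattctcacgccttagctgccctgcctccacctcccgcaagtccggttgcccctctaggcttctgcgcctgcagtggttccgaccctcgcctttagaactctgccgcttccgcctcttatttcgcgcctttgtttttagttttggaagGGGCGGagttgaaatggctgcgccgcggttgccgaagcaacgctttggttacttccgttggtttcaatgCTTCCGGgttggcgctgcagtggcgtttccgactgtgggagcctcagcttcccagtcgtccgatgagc
SLC25A53, chrX:104156960-104157259, minus strand: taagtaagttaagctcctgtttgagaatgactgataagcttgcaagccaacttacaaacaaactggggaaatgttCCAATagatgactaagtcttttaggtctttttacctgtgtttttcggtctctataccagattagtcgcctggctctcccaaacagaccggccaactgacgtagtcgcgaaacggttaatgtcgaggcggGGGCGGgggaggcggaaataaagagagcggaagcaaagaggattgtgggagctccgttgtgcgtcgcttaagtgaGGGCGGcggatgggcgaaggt
SLC25A28, chr10:99620390-99620689, minus strand: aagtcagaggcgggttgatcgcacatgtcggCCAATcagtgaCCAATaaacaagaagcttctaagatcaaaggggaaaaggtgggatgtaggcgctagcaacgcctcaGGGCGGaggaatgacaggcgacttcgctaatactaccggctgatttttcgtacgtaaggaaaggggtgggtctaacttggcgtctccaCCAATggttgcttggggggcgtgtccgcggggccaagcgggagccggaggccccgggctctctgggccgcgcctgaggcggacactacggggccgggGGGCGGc
SLC25A4 held TATAA from 28 to 24 bases before the start, and the other 3 held none. SLC25A28 held 3 CCAAT boxes and 2 GC boxes, SLC25A53 held 1 and 2, and SLC25A14 held a GC box and an ETS motif. The motif of the factor NRF1 was searched too and was not among the letters of any of the 4 windows. Over all 35116 promoter windows of the table, the CCAAT box was found in 34.6%, the GC box in 44.95%, the TATA element in 20.4%, the ETS motif in 10.3% and the NRF1 motif in 5.78%. Of the 36 tested carriers with a window, 19 held the CCAAT box (52.8%), 27 the GC box (75%) and 4 the TATA element (11.1%). The ETS motif was in 7 (19.4%) and the NRF1 motif in 3 (8.33%). Windows over all promoters were not limited to tested or protein-coding genes, unlike those of the carriers. The shares therefore come from unlike sets. These matches describe letters and not binding.

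Most carriers were expressed at a moderate level. Levels are compared between genes as TPM, which is scaled to gene length. Mean TPM over the 4 libraries was above 100 for 5 members, between 10 and 100 for 27, between 1 and 10 for 9 and below 1 for 7. The highest was the ADP/ATP translocase SLC25A5, at 320.0 and 455 TPM in HEK293 and 518 and 364 TPM in Synph-293. The phosphate and copper carrier SLC25A3 came next, at 346 and 436 TPM in HEK293 and 353 and 240.3 TPM in Synph-293, and the ranges of the 2 genes overlap. The glutathione carrier SLC25A39 had 263, 318, 258 and 210.3 TPM in the same order, and the translocase SLC25A6 had 148, 204, 269.9 and 214 TPM. The oxoglutarate carrier SLC25A11 was the last member above 100, with values of 112, 152, 133 and 111 TPM that reach into the range of SLC25A6. The citrate carrier SLC25A1 stood below all of these, with no library above 96.2 TPM. Outside the set, UCP2 and MTCH1 had a mean of 172 and 163 TPM over the 4 libraries. The 2 most abundant members held between 30.997% and 36.7% of the family's summed TPM, and the 10 most abundant between 74.5% and 78.2%.

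**Figure D1:**
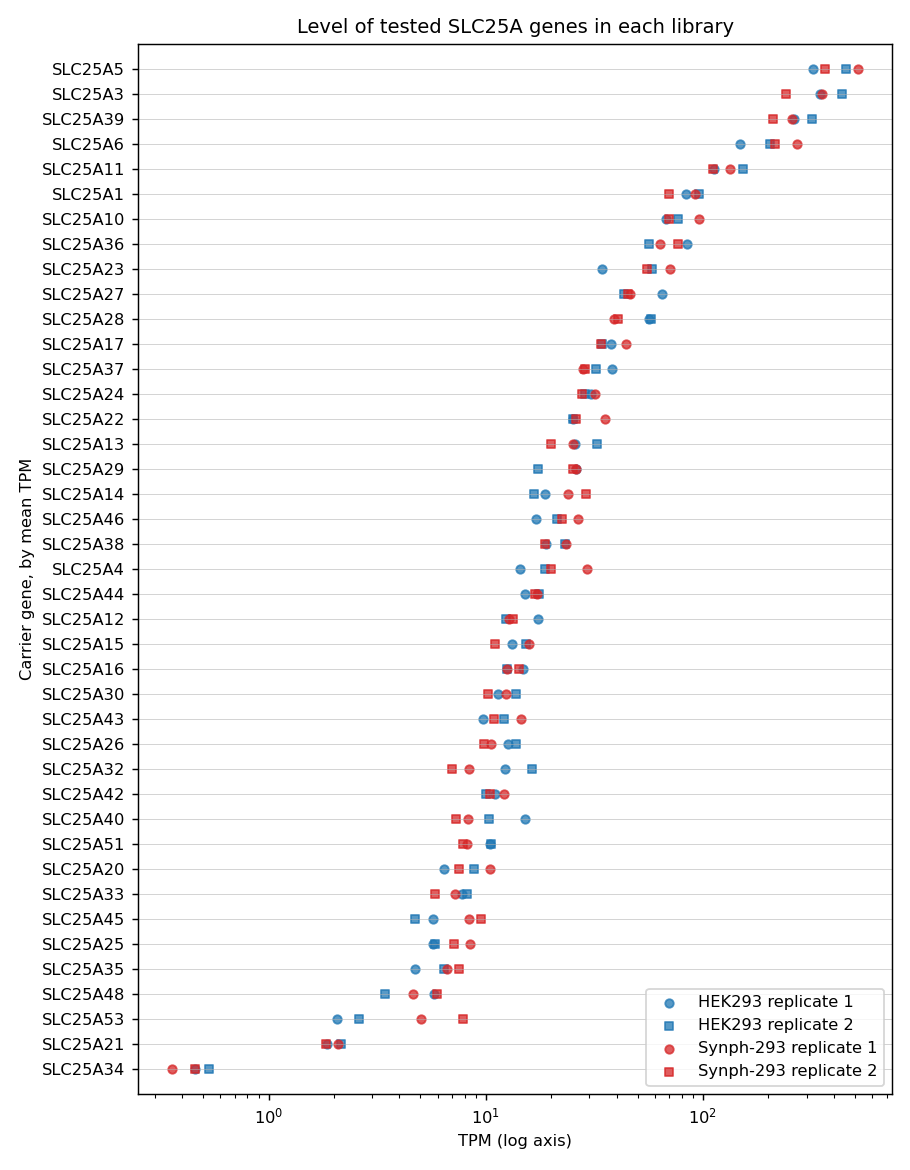
TPM (log axis) of tested SLC25A genes in each of the 4 libraries, ordered by mean TPM, with HEK293 in blue and Synph-293 in red. SLC25A5, SLC25A3, SLC25A39, SLC25A6 and SLC25A11 lie above 100 TPM on average, and SLC25A34 is lowest.

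At the other end, 6 members had too few counts to be tested. They were SLC25A2, the testis translocase SLC25A31, the ATP-Mg/phosphate carrier SLC25A41, the glutamate carrier SLC25A18, the liver carrier SLC25A47 and SLC25A52. Their highest count in any library was 5, for SLC25A41 in Synph-293 replicate 1. A limit of 3 counts corresponded to between 0.178 and 0.225 CPM per library, so differences between the lines were not detectable for these genes at this depth. SLC25A34 was tested with 16, 6, 12 and 16 counts, too few to place its log2 fold change of 0.23 ± 0.48 (SE).

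The summed level of the family overlapped between the lines. The summed TPM was 2044 and 2426 in HEK293 and 2460.3 and 1951 in Synph-293, or 2235 ± 270.3 against 2206 ± 360.2 (SD, n = 2 each; exact two-sided permutation test, p = 1.00, where the smallest p that 2 against 2 libraries allow is 0.333, so that the test could not have called a difference). HEK293 replicate 2 and Synph-293 replicate 1 were the high libraries. These were also the libraries in which the mitochondrial genome took less of the TPM, 17.7% and 15.9% against 23.1% in HEK293 replicate 1 and 23.0% in Synph-293 replicate 2. With TPM rescaled without the mitochondrial genome, the sums were 2658 and 2947 in HEK293 and 2927 and 2534 in Synph-293, and the same libraries stayed high. In CPM, 23 of the 42 tested carriers (54.8%) were higher in HEK293 replicate 2 than in replicate 1 and also higher in Synph-293 replicate 1 than in replicate 2, compared with 33.2% of all genes tested.

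**Figure D2:**
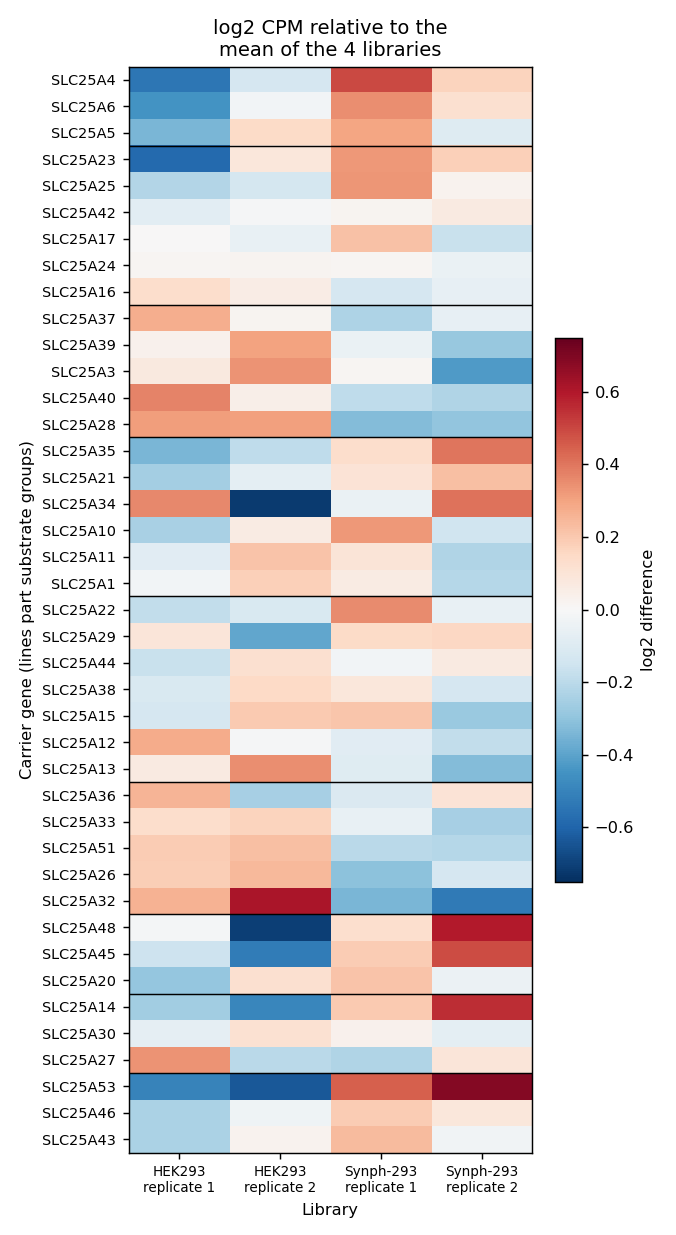
log2 CPM of tested carriers, each relative to its mean over the 4 libraries, with rows grouped by substrate and columns by library. SLC25A28, SLC25A32 and SLC25A53 differ between the lines in both replicates, while SLC25A5, SLC25A10 and SLC25A15 are higher in HEK293 replicate 2 and Synph-293 replicate 1 than in the other 2 libraries.

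Synph-293 was compared with HEK293 for each gene by edgeR's quasi-likelihood test over all 16421 genes with enough counts, with Benjamini-Hochberg adjustment and a threshold of 0.05. Of the 42 carriers tested, 3 were higher (SLC25A4, SLC25A14 and SLC25A53) and 2 lower (SLC25A28 and SLC25A32) in Synph-293. That is 7.14% higher and 4.76% lower, beside a background of 10.0% higher and 6.58% lower over all genes tested and of 10.3% and 6.95% over protein-coding genes, so the carriers were not called more often than genes in general. Their median log2 fold change was 0.05 and their median absolute log2 fold change 0.29, beside -0.01 and 0.30 over all genes tested. The 2 lines did not overlap in CPM for 26 of the 42 carriers, 14 above and 12 below in Synph-293, or 61.9% beside a background of 59.6%. Another 37 carriers did not pass, and with a median standard error of 0.18 on the log2 scale this does not show that they were the same in both lines. Ranges of adjusted p over all alternatives, given below, include a crossed replicate block chosen after seeing the data. This block pairs HEK293 replicate 1 with Synph-293 replicate 2, and it gave the lowest value for SLC25A4 and SLC25A14. Low ends of these ranges are therefore no measure of support.

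**Figure D3:**
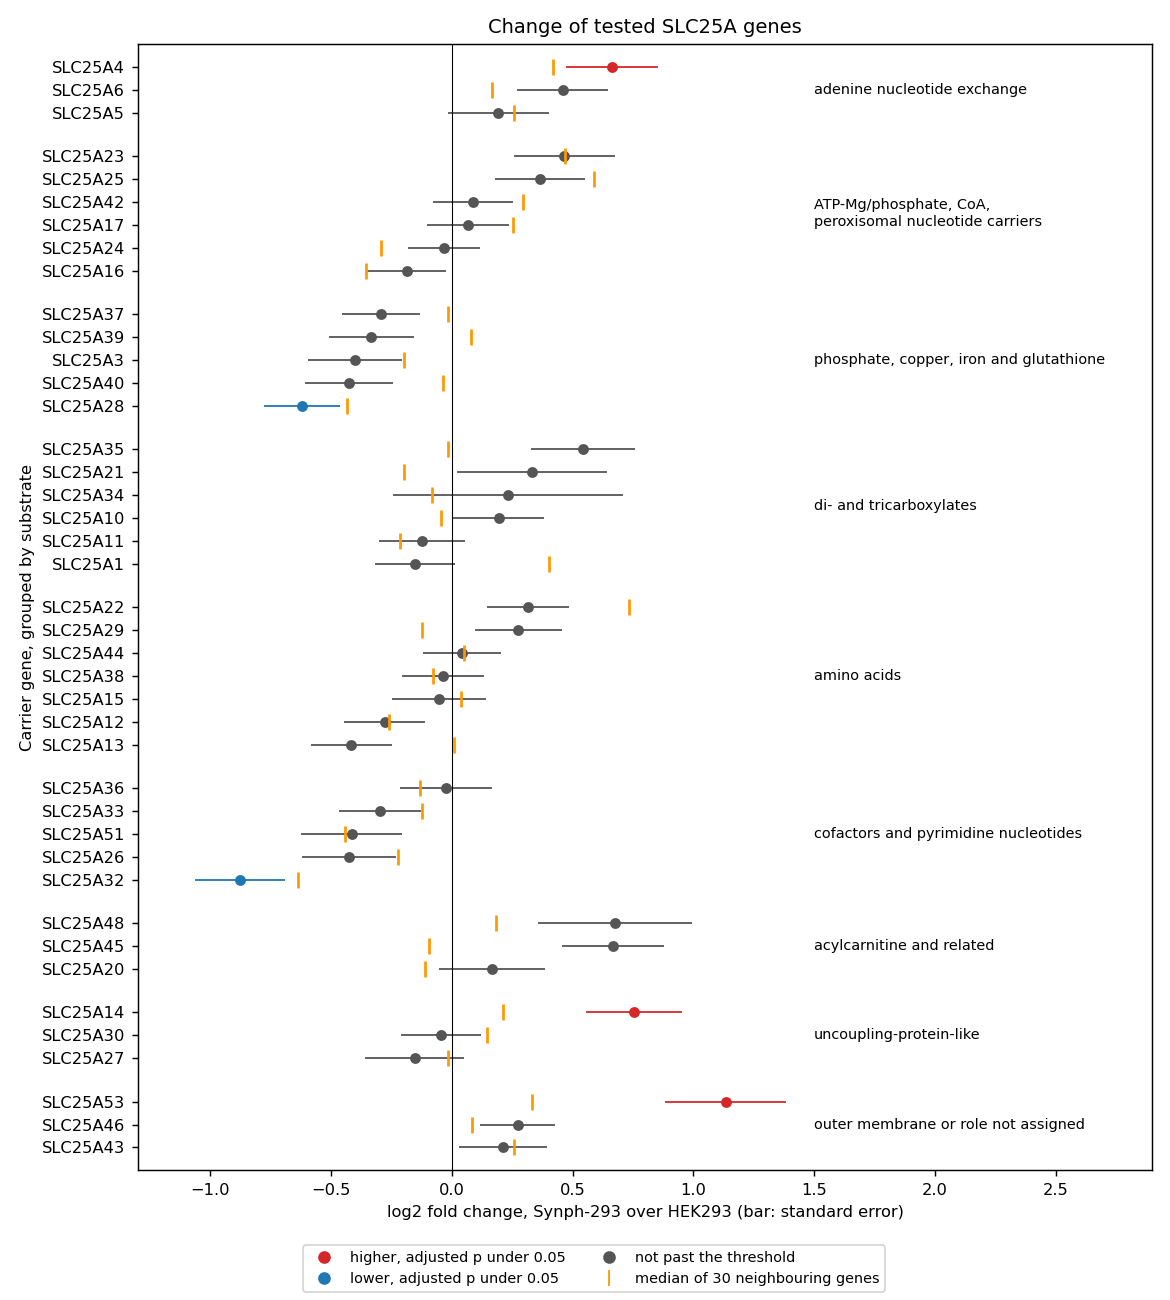
log2 fold change of Synph-293 over HEK293 for tested carriers with its standard error, grouped by substrate, and the median log2 fold change among the 30 nearest tested genes on the chromosome (orange ticks). SLC25A4, SLC25A14 and SLC25A53 (red) were higher and SLC25A28 and SLC25A32 (blue) lower at an adjusted p under 0.05.

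Among the ADP/ATP translocases, which exchange matrix ATP for cytosolic ADP, SLC25A4 rose. SLC25A4 (ENSG00000151729, chromosome 4, 185143266 to 185150382, plus strand, GRCh38), the isoform known from heart and muscle, had 19.5 and 26.0 CPM in HEK293 and 39.998 and 31.9 CPM in Synph-293. Both Synph-293 libraries were above both HEK293 libraries. Its log2 fold change was 0.66 ± 0.19 (SE; edgeR adjusted p = 0.0346), or 1.58-fold. Leaving out HEK293 replicate 1 gave an edgeR adjusted p of 0.0622 and leaving out Synph-293 replicate 1 gave 0.287, which ended the call, and over all alternatives the adjusted p ran from 4.01e-06 to 0.518. SLC25A6 had 129 and 173 CPM in HEK293 and 224 and 191 CPM in Synph-293, without overlap, and a log2 fold change of 0.46 ± 0.19 that did not pass (edgeR adjusted p = 0.118). SLC25A5, the most abundant of the 3, had 241 and 337 CPM against 375 and 285 CPM, which overlap, and a log2 fold change of 0.19 ± 0.21.

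The make-up of the translocase pool is given in TPM. SLC25A5 was 66.4% and 67.1% of the 3 genes in HEK293 and 63.4% and 60.9% in Synph-293. SLC25A6 was 30.7% and 30.1% in HEK293 and 33.0% and 35.8% in Synph-293, and SLC25A4 was 2.97% and 2.77% against 3.56% and 3.35%. None of these shares overlapped between the lines, and the exact permutation test gave p = 0.333 for each, the smallest it can give with 2 against 2. The translocases made up 23.6% and 27.9% of the family's TPM in HEK293 and 33.2% and 30.7% in Synph-293.

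Of the 5 carriers of phosphate, copper, iron and glutathione, SLC25A28 fell and the other 4 did not pass, beside 6.58% of all genes tested called lower. All 5 had both Synph-293 libraries below both HEK293 libraries, as did 29.1% of all genes tested, and their median log2 fold change was -0.40 beside -0.01 over all genes tested. SLC25A28 (ENSG00000155287, chromosome 10, 99610522 to 99620609, minus strand, GRCh38), a mitoferrin that imports iron for heme and iron-sulfur clusters, had 31.1 CPM in both HEK293 libraries and 20.0 and 20.4 CPM in Synph-293. The replicates lay close together and the lines were far apart. Its log2 fold change was -0.62 ± 0.16 (edgeR adjusted p = 0.0202). Leaving out either Synph-293 library ended the call (edgeR adjusted p of 0.202 without replicate 1 and 0.165 without replicate 2), as did the replicate block (0.0710), and over all alternatives the adjusted p ran from 3.01e-05 to 0.536. The other mitoferrin, SLC25A37, which is known from erythroid cells, had 84.3 and 70.7 CPM against 59.5 and 66.96 CPM and a log2 fold change of -0.29 ± 0.16 (edgeR adjusted p = 0.238).

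The other 3 members of the group did not pass. SLC25A3 had 298 and 357 CPM in HEK293 and 286 and 211 CPM in Synph-293, with a log2 fold change of -0.40 ± 0.19 (edgeR adjusted p = 0.185). For SLC25A39 the log2 fold change was -0.33 ± 0.18, and for SLC25A40, which like SLC25A39 carries glutathione, it was -0.43 ± 0.18 (edgeR adjusted p = 0.223 and 0.135). In TPM, SLC25A39 made up 94.6% to 96.9% of the glutathione pair in the 4 libraries. As a share of the family's TPM, the group took 35.2% in both HEK293 libraries and 27.9% and 27.01% in Synph-293, 35.2 ± 0.0428 against 27.5 ± 0.641 (SD, n = 2 each; exact permutation p = 0.333, the smallest it can give). SLC25A3 took 16.9% and 17.98% in HEK293 and 14.4% and 12.3% in Synph-293, and SLC25A39 took 12.9% and 13.1% against 10.5% and 10.8%. Shares of one total are not independent, since a larger share of one group lowers those of others. The shares of the adenine nucleotide, ATP-Mg/phosphate, acylcarnitine and outer membrane groups also did not overlap between the lines, each being higher in Synph-293. Those of the remaining groups overlapped.

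**Figure D4:**
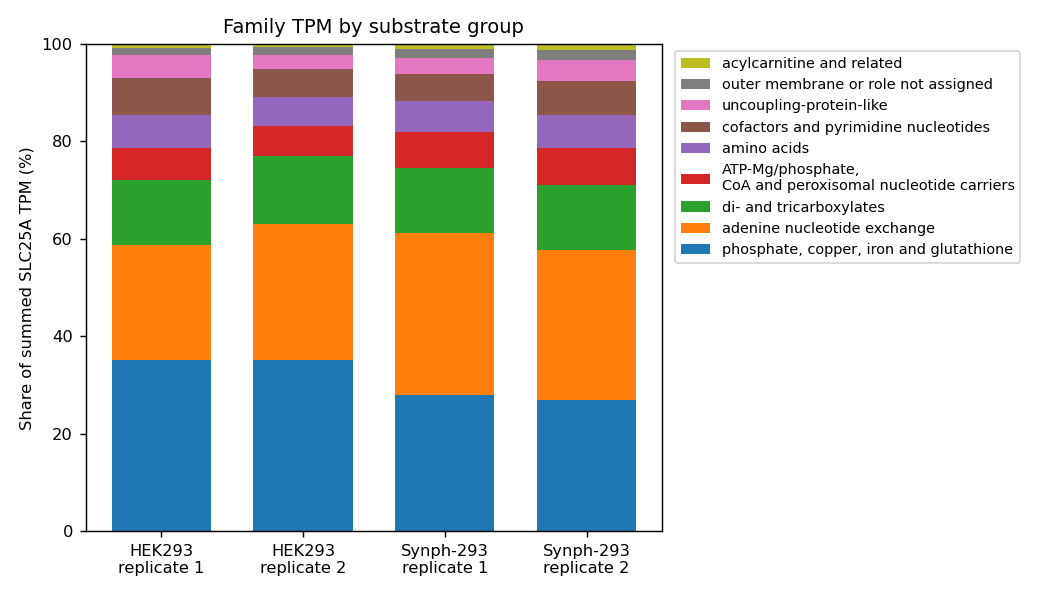
Share of the summed TPM of the family (%) taken by each substrate group, stacked, in each of the 4 libraries. The phosphate, copper, iron and glutathione group (bottom) took 35.2% in both HEK293 libraries and 27.9% and 27.01% in Synph-293, and the adenine nucleotide carriers above it took 23.6% and 27.9% against 33.2% and 30.7%.

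Among carriers of cofactors and pyrimidine nucleotides, SLC25A32 fell. SLC25A32 (ENSG00000164933, chromosome 8, 103398635 to 103415189, minus strand, GRCh38), which brings folate into mitochondria and has been linked to FAD uptake, had 22.7 and 28.9 CPM in HEK293 and 14.9 and 13.1 CPM in Synph-293. The lines did not overlap. Its log2 fold change was -0.88 ± 0.18 (edgeR adjusted p = 0.00811), and leaving out Synph-293 replicate 2 ended the call at an edgeR adjusted p of 0.0597, within 1.95e-08 to 0.502 over all alternatives. SLC25A32 overlaps DCAF13 on the opposite strand, which had 1419 and 1108 counts in HEK293 and 840 and 796 in Synph-293 and was also called lower, with a log2 fold change of -0.76 ± 0.15 (edgeR adjusted p = 0.00571). By GENCODE 29 the exons of the 2 genes share 406 bases, 11.1% of those of SLC25A32 and 4.41% of those of DCAF13. Without the strand setting, not given in the sources used here, reads from this shared stretch cannot be told apart. In all, 17 of the tested carriers overlap a gene on the opposite strand that had over 3 counts in a library.

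No other member of that group passed. The NAD+ carrier SLC25A51 had 8.06 and 8.24 CPM in HEK293 and 6.14 and 6.08 CPM in Synph-293, with a log2 fold change of -0.42 ± 0.21 (edgeR adjusted p = 0.196). The S-adenosylmethionine carrier SLC25A26 had a log2 fold change of -0.43 ± 0.20 (edgeR adjusted p = 0.160) and the pyrimidine nucleotide carrier SLC25A33 of -0.30 ± 0.17, both without overlap. SLC25A36, the more abundant pyrimidine nucleotide carrier, had 175 and 124 CPM against 136 and 157 CPM and a log2 fold change of -0.02 ± 0.19.

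Of the uncoupling-protein-like carriers, SLC25A14 rose. SLC25A14 (ENSG00000102078, chromosome X, 130339888 to 130373361, plus strand, GRCh38), a carrier known for its expression in brain, had 10.4 and 8.91 CPM in HEK293 and 14.4 and 18.4 CPM in Synph-293, without overlap. Its log2 fold change was 0.75 ± 0.20 (edgeR adjusted p = 0.0254), and leaving out Synph-293 replicate 2 ended the call at an edgeR adjusted p of 0.270, the highest over all alternatives, where the lowest was 3.35e-05. SLC25A27, another carrier known from brain, had 31.01 and 21.3 CPM against 21.0 and 26.2 CPM, which overlap, and a log2 fold change of -0.15 ± 0.20. SLC25A30 had a log2 fold change of -0.04 ± 0.17.

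SLC25A53, whose substrate is not assigned, had the largest change of the tested carriers. SLC25A53 (ENSG00000269743, chromosome X, 104099214 to 104157009, minus strand, GRCh38) had 50 and 36 counts in HEK293 and 96 and 110 in Synph-293, or 2.96 and 2.696 CPM against 5.72 and 6.75 CPM. Its log2 fold change was 1.13 ± 0.25 (edgeR adjusted p = 0.0108), or 2.19-fold, and leaving out Synph-293 replicate 2 ended the call at an edgeR adjusted p of 0.0787, within 3.30e-05 to 0.0796 over all alternatives. It overlaps ZCCHC18 on the opposite strand, with 43 and 28 counts in HEK293 and 76 and 74 in Synph-293, which was called higher as well (log2 fold change 0.95 ± 0.27, edgeR adjusted p = 0.0344). By GENCODE 29 the 2 genes share 0 exon bases, so that no base of the overlap is exon in both genes. The outer membrane protein SLC25A46, known for a role in mitochondrial fission, had 39.8 and 45.9 CPM against 53.6 and 49.9 CPM, without overlap, and a log2 fold change of 0.27 ± 0.16 (edgeR adjusted p = 0.255). SLC25A43 had 0.21 ± 0.18.

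**Figure D5:**
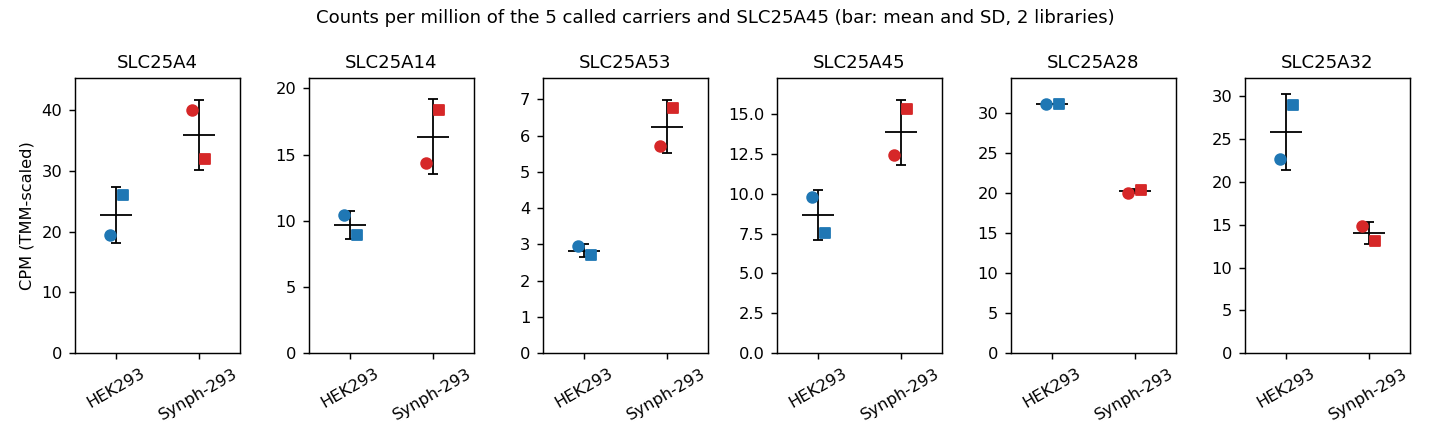
CPM of the 5 called carriers and of SLC25A45 in each library, with HEK293 in blue and Synph-293 in red, replicate 1 as a circle and replicate 2 as a square, and the mean with SD of 2 libraries as a black bar. The libraries of the 2 lines do not overlap in any of the 6 panels, and SLC25A28 had 31.1 CPM in both HEK293 libraries.

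Just outside the threshold was SLC25A45, placed here with the acylcarnitine carrier by relation. It had 9.78 and 7.56 CPM in HEK293 and 12.4 and 15.3 CPM in Synph-293, with a log2 fold change of 0.67 ± 0.21 (edgeR adjusted p = 0.0507, and from 0.000515 to 0.369 among all alternatives). SLC25A20, the carnitine/acylcarnitine carrier that brings fatty acids to oxidation, had a log2 fold change of 0.17 ± 0.22 and overlapping lines. SLC25A48 had 3.02 and 1.87 CPM against 3.34 and 4.603 CPM and a log2 fold change of 0.68 ± 0.32 (edgeR adjusted p = 0.170).

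None of the 7 tested amino acid carriers was called. Among the aspartate/glutamate carriers of the malate-aspartate shuttle, SLC25A13 had 49.4 and 60.2 CPM in HEK293 and 44.4 and 37.7 CPM in Synph-293, with a log2 fold change of -0.42 ± 0.17 (edgeR adjusted p = 0.114). SLC25A12 had 29.4 and 24.1 CPM against 22.9 and 21.3 CPM and -0.28 ± 0.17 (edgeR adjusted p = 0.287). Both had lines that did not overlap. The glutamate carrier SLC25A22 had 37.2 and 39.0 CPM against 54.0 and 40.8 CPM and a log2 fold change of 0.32 ± 0.17 (edgeR adjusted p = 0.234). Log2 fold changes were 0.28 ± 0.18 for the basic amino acid carrier SLC25A29, 0.04 ± 0.16 for the branched-chain amino acid carrier SLC25A44, -0.04 ± 0.17 for the glycine carrier SLC25A38 and -0.05 ± 0.19 for the ornithine carrier SLC25A15.

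Of the 6 di- and tricarboxylate carriers, none was called. SLC25A1, which exports citrate for fatty acid and sterol synthesis, had 76.0 and 87.3 CPM in HEK293 and 80.4 and 66.5 CPM in Synph-293, with a log2 fold change of -0.15 ± 0.17. The dicarboxylate carrier SLC25A10 had 0.19 ± 0.19 and the oxoglutarate carrier SLC25A11 of the malate-aspartate shuttle -0.13 ± 0.18. SLC25A35 had 5.99 and 6.67 CPM against 8.35 and 10.1 CPM, without overlap, and a log2 fold change of 0.54 ± 0.21 (edgeR adjusted p = 0.107). SLC25A21, the oxoadipate carrier, was low, between 1.72 and 2.39 CPM in the 4 libraries. The group took between 13.2% and 13.8% of the family's TPM in all 4 libraries.

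None of the 6 tested ATP-Mg/phosphate, CoA and peroxisomal carriers was called either. The calcium-regulated ATP-Mg/phosphate carrier SLC25A23 had 66.2 and 105 CPM in HEK293 and 124 and 112 CPM in Synph-293, with a log2 fold change of 0.47 ± 0.21 (edgeR adjusted p = 0.151). HEK293 replicate 1 stood apart for this gene, and its adjusted p was 0.000143 without HEK293 replicate 2 and 0.584 without HEK293 replicate 1 (edgeR; up to 0.952 among all alternatives). SLC25A24 had 70.03, 70.2, 70.1 and 67.02 CPM and a log2 fold change of -0.03 ± 0.15, with the smallest standard error of the 42 carriers. SLC25A25 had 0.36 ± 0.19, the CoA carrier SLC25A42 had 0.09 ± 0.17, SLC25A16 had -0.19 ± 0.16 and the peroxisomal SLC25A17 had 0.07 ± 0.17.

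Values of neighbouring genes stood on the same side as many carriers. For each gene, the median log2 fold change among the 30 nearest tested genes on its chromosome was taken as the local shift. The local shift had the same sign as the carrier for 30 of 42 carriers (71.4%), beside 68.4% of all genes tested. The correlation across genes was 0.61 for the carriers and 0.26 for all genes tested. Log2 fold changes ran from -0.88 to 1.13 among the carriers and from -9.30 to 12.6 over all genes tested. These correlations are therefore not directly comparable. Neighbouring genes also share a local shift and are not independent. The local shift was -0.64 at SLC25A32, -0.44 at SLC25A28, 0.42 at SLC25A4, 0.33 at SLC25A53 and 0.21 at SLC25A14, in each case on the side of the carrier. With it removed, the log2 fold change by limma on log2 CPM was -0.23 for SLC25A32, -0.18 for SLC25A28 and 0.24 for SLC25A4, against 0.77 for SLC25A53 and 0.53 for SLC25A14. None of the 5 was then called, and the limma adjusted p was 0.502 for SLC25A32, 0.536 for SLC25A28, 0.518 for SLC25A4, 0.0796 for SLC25A53 and 0.145 for SLC25A14. The same limma test with the local shift kept called all 5. SLC25A45, with a local shift of -0.10, was the single carrier called with the shift removed (limma adjusted p = 0.0480).

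Genes that act beside the carriers were taken as 3 lists. Of 16 genes of carrier import, all tested, 1 was higher (6.25%) and 2 lower (12.5%), beside 10.0% and 6.58% of all genes tested, with a median log2 fold change of 0.09. TIMM10B, a small chaperone of the intermembrane space, rose from 19.7 and 19.6 CPM to 32.1 and 35.6 CPM (log2 fold change 0.78 ± 0.16, edgeR adjusted p = 0.00681). TOMM7, a small subunit of the outer membrane translocase, fell from 62.0 and 59.7 CPM to 31.8 and 32.5 CPM (-0.92 ± 0.15, edgeR adjusted p = 0.00180). The chaperone TIMM8B fell from 36.4 and 37.2 CPM to 26.3 and 20.9 CPM (-0.64 ± 0.17, edgeR adjusted p = 0.0241). None of the 3 was called in limma with the local shift removed, and leaving out 1 library left between 1 and 5 called import genes, with 1 when Synph-293 replicate 2 was left out and 5 when HEK293 replicate 1 was.

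Of 30 other mitochondrial transporters and fatty acid import genes, 29 were tested, with UCP1 at 0 in all libraries, and 2 were higher (6.90%) and 3 lower (10.3%), beside 10.0% and 6.58% of all genes tested, with a median log2 fold change of -0.20. Leaving out either of the Synph-293 libraries left 0 called genes in this list, 11 were called without HEK293 replicate 2, and 1 with the replicate block. CPT1A, which makes acylcarnitines for the carnitine carrier, rose from 53.0 and 53.6 CPM to 76.1 and 78.7 CPM, while CPT2, which turns them back into acyl-CoA in the matrix, fell from 56.4 and 60.7 CPM to 38.0 and 36.8 CPM. Their log2 fold changes were 0.54 ± 0.15 and -0.64 ± 0.15 (edgeR adjusted p = 0.0300 and 0.0140). The pyruvate carrier subunit MPC2 had 44.4 and 47.9 CPM in HEK293 and 30.8 and 26.4 CPM in Synph-293, and fell by 0.69 ± 0.16 on the log2 scale (edgeR adjusted p = 0.0132). The sideroflexin SFXN4 had 40.7 and 41.1 CPM against 28.1 and 24.4 CPM and fell by 0.64 ± 0.16 (edgeR adjusted p = 0.0181). MICU2, a regulator of the calcium uniporter, rose from 13.6 and 12.5 CPM to 19.8 and 19.9 CPM (log2 fold change 0.61 ± 0.17, edgeR adjusted p = 0.0331).

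Of 32 enzymes that make or use the carriers' substrates, 31 were tested, OTC being too low. Of these, 0 were higher and 4 lower, beside 10.0% of all genes tested called higher. Their median log2 fold change was -0.22, beside -0.01 over all genes tested. The ornithine aminotransferase OAT fell from 128 and 127 CPM to 74.5 and 70.2 CPM (log2 fold change -0.81 ± 0.15, edgeR adjusted p = 0.00430). The argininosuccinate synthase ASS1 fell from 112 and 155 CPM to 89.8 and 75.6 CPM, and the glutamate dehydrogenase GLUD1 from 162 and 186 CPM to 124 and 109 CPM. Their log2 fold changes were -0.69 ± 0.19 and -0.58 ± 0.16 (edgeR adjusted p = 0.0297 and 0.0337). ASS1, GLUD1 and OAT have near-identical copies or pseudogenes in the genome, so their counts are uncertain. Of the 31 enzymes tested, 12.9% were called lower, beside 6.58% of all genes tested, and 28 had a log2 fold change below 0, beside 8422 of the 16421 genes tested. Called enzymes numbered 0 without Synph-293 replicate 2, 1 without Synph-293 replicate 1, 8 without HEK293 replicate 1 and 0 with the local shift removed.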

How the data were processed

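The submitters' processing notes name the build GRCh38.p13 and, without a role for any, the tools STAR 2.7.1a, cutadapt 2.8, featureCounts 2.0.0, RSEM 1.3.1, Cufflinks 2.2.1 and HTSeq 0.11.2. The strand setting was not given in the sources used here. The deposited counts were taken as estimated counts rounded by the authors, since each library had 43 to 63 genes at a count of 0 but a TPM above 0. The deposited TPM values, scaled by the authors for gene length and library size, served for levels and shares. RPKM values in the same table were left aside.

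In R 4.3.3, edgeR 4.0.16 was run with filterByExpr (minimum count 10, minimum total 15), TMM scaling and a quasi-likelihood test on the line alone. A standard error is the log2 fold change over the square root of F, and the biological coefficient of variation was 13.0%. Alternatives used limma 3.58.1 and DESeq2 1.42.0. The edgeR code was run on simulated data with 200 changed genes. It called 15 of 67 genes changed 1.5-fold, 48 of 67 changed 2-fold and 62 of 66 changed 4-fold. It also called 23 of 16221 unchanged genes. Set beside the 15, 48 and 62 changed genes called, these 23 are a larger share of all calls than the threshold of 0.05 allows. Far fewer genes were changed in the simulation than were called in the data, 1648 higher and 1081 lower. Replicates of a line differed by more than sampling noise (chi-square per degree of freedom 24.7 in HEK293 and 17.3 in Synph-293). Limits at 3 counts cover counting error only.

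The members, lists and alternatives were chosen with earlier results of these data known. The naming rule took every called carrier, the most abundant carrier of each substrate group, sets of related carriers, and up to 6 called genes per list, those of largest change. SLC25A45 and the other carriers given with values were named after their values were seen. A RefSeq promoter was matched by symbol for 40 of the 48 members. Some genes that enter the counts are not reported here by name.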

Additional observations from a re-analysis of the deposited data

How the results depend on the processing

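No called carrier changed direction. Of 671 values of single carriers under the alternatives, 627 stayed on their side of the threshold, 25 gained a call and 19 lost one, and 44 changed sign while called in neither fit. The 3 higher and 2 lower carriers became 1 and 1 in limma on log2(TPM + 0.1) and on log2(TPM + 1), where SLC25A53 and SLC25A32 were called. With the median of 30 neighbours removed, 1 carrier was higher and 0 lower. That 1 carrier was SLC25A45, and none of the 3 higher and 2 lower carriers was called. Over all genes, the 1648 higher became 1086 with a pseudocount of 0.1, and the 1081 lower became 474 with 0.1, 521 with 1 and 474 with neighbours removed. Called genes of carrier import (3) became 0, 0 and 0 in these 3 settings, those of other transporters (5) became 0, 0 and 2, and those of partner enzymes (4) became 1, 1 and 0. The cause was not tested.

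Leaving out 1 library gave 1 to 5 higher and 0 to 4 lower carriers, 1049 to 2183 higher and 457 to 2042 lower genes, 1 to 5 import genes, 0 to 11 other transporters and 0 to 8 partner enzymes. Without Synph-293 replicate 2, SLC25A4 alone was called, and no carrier was called in all 4 such fits. In a fit that leaves a line with 1 library, that library is assumed to vary like the other line.

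The labels give both lines the same replicate numbers, and deviations of same-numbered libraries had a correlation of -0.28. Same-numbered libraries thus tended to deviate in opposite directions, and whether libraries of the 2 lines share a batch was not tested. With the replicate block, 3 carriers were higher and 1 lower (SLC25A28 was not called, edgeR adjusted p = 0.0710), 719 genes were lower, and 1 other transporter was called. With the crossed replicate block, chosen after seeing the data, 9 carriers were higher and 8 lower, 3251 genes higher and 3016 lower, and 8 import genes, 12 other transporters and 13 partner enzymes were called. With 2 libraries a line, the spread between libraries limits what could be called among the other 37 carriers.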

Other observations

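The deposited count divided by the deposited TPM moves with the transcript length that the TPM was scaled to. Relative to the median of the tested carriers in each library, this ratio was 0.370 and 0.404 in HEK293 and 0.510 and 0.526 in Synph-293 for SLC25A48, so that its TPM values (5.79 and 3.45 against 4.61 and 5.99) overlap between the lines while its CPM values do not. For SLC25A53 the ratio was 1.02 and 0.769 in HEK293 and 0.804 and 0.588 in Synph-293. SLC25A25-AS1, which overlaps the ATP-Mg/phosphate carrier SLC25A25 on the opposite strand, had 54 and 32 counts in HEK293 and 88 and 87 in Synph-293 (log2 fold change 0.91 ± 0.26, edgeR adjusted p = 0.0370).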
